A study of Mus musculus with 50 samples.

Results

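Hox genes encode the homeodomain transcription factors that tell embryonic cells where along the body axis, and where along a limb, they lie. All genes whose symbol is Hox followed by the letter a, b, c or d of a cluster and a number were taken, which gives 39 mouse genes in 4 clusters and 13 paralogue groups. Of these, 38 were among the 23880 genes of the deposited tables, and Hoxd12 was not analysed here. The questions were which of them are expressed in adult hindlimb muscle, defined as 1 TPM (a level per transcript, scaled by transcript length and library size) or more in 8 or more mice, and whether those levels held or shifted over 6 ages.

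RNA came from the gastrocnemius, a calf muscle, of 50 wild type male C57BL/6JRj mice, an inbred strain supplied from a commercial ageing colony, in groups of 8 (ages 8, 18, 22 and 24 months) and of 9 (ages 26 and 28 months). The mice were housed singly and fed a purified diet, and animals with overt illness or tumours had been left out. Mice of 8 and 18 months received the diet for a short acclimatisation before dissection, whereas mice of 22 to 28 months had received it since 18 to 19 months, so a difference between 8 months and these older ages carries age and diet history together, and they cannot be told apart. Each library was 1 mouse, made from polyadenylated RNA with the strand kept, and held 13607229 to 21267375 counts. The tissue label held as far as skeletal muscle, since the markers used do not tell one muscle from another. The 6 muscle fibre genes Ckm, Acta1, Myh4, Myh1, Myh2 and Actn3 summed to 77136 to 105862 TPM at 8 months. At 28 months they summed to 68381 to 121181 TPM. In bulk tissue, fewer cells of a type and less RNA per cell cannot be told apart.

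The genes of a Hox cluster lie in the order in which they are switched on from the anterior to the posterior of the embryo, and genes at the same place in different clusters are paralogues that can stand in for each other. In the limb bud, paralogues toward the posterior end of the HoxA and HoxD clusters pattern the upper segment, then the lower leg or forearm, then the foot or hand, and HoxC genes act in the hindlimb. Connective tissue cells of the adult limb keep a positional Hox code from the embryo. Hox proteins bind DNA together with TALE homeodomain partners of the Pbx, Meis and Pknox families, and Polycomb and Trithorax complexes keep clusters silent or active.

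The upstream sequences of 3 members show how unlike these starts are. Windows of 300 bases, 250 before and 50 after a transcript start, were taken from RefSeq on GRCm38.p6, where 22 Hox genes had 24 windows, among them 12 of the genes found to be expressed. Capitals mark CpG dinucleotides, the sites of DNA methylation and of Polycomb recruitment. Hoxa10 is shown because it was the member past the threshold in the most comparisons, Hoxd9 as its neighbour in level, which was not called at any age, and Hoxd13 as a gene of the same cluster as Hoxd9 with almost no RNA.
Hoxa10, first window, chr6:52240805-52241104, minus strand: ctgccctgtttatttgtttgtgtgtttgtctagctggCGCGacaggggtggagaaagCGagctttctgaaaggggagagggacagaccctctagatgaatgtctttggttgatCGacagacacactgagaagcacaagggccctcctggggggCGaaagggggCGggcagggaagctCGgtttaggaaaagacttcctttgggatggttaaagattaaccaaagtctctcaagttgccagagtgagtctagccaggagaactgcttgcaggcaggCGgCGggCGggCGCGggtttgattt
Hoxa10, second window, chr6:52234890-52235189, minus strand: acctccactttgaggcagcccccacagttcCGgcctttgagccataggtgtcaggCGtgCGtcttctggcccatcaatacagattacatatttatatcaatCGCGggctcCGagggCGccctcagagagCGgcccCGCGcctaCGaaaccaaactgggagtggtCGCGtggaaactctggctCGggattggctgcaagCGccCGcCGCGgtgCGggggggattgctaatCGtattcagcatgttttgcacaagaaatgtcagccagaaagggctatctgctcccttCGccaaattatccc
Hoxd9, chr2:74697513-74697812, plus strand: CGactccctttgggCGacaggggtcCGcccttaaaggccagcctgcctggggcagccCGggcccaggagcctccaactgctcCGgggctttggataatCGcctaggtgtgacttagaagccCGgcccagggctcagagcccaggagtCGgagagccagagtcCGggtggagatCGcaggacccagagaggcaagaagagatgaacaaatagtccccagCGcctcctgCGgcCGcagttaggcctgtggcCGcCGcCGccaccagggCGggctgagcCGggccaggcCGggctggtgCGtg
Hoxd13, chr2:74667975-74668274, plus strand: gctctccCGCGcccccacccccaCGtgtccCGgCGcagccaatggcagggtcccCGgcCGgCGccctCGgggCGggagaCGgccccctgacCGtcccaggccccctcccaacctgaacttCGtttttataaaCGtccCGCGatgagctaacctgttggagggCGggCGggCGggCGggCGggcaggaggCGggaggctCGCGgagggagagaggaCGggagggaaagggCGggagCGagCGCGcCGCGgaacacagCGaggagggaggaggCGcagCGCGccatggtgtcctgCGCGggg
Hoxd13, with almost no RNA, had 37 CpG in its window, the expressed Hoxd9 had 20, and the Hoxa10 windows had 12 and 21. Over the 24 Hox windows the median was 14.5 CpG, with a range of 4 to 45, beside a median of 7 over all 32851 windows. The letters TTTATNG, a motif of posterior Hox proteins, and TGATNNAT, a motif of Hox with Pbx, were searched on both strands, each counted whether or not it overlapped the other. TTTATNG stood in 10.9% of all windows and in 2 Hox windows (Hoxd4 and Hoxb8), and TGATNNAT in 8.85% of all windows and in 4 Hox windows (Hoxd11, Hoxa2, Hoxb8 and Hoxb1). Neither was found in the 4 windows printed.

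Hox RNA of the adult gastrocnemius came mostly from paralogue groups 8 to 10. Their members summed to 53.7, 24.8 and 107 TPM, of 226 ± 13.5 TPM over all 38 genes (SD, n = 50). In total 19 of the 38 genes were expressed by the rule, 14 of them in all 50 mice. By cluster, 9 of 11 HoxA, 6 of 9 HoxC and 3 of 8 HoxD genes passed, but 1 of 10 HoxB genes. By position, 3 of 12 genes of groups 1 to 4, 7 of 11 of groups 5 to 8 and 9 of 15 of groups 9 to 13 passed. Summed over a cluster, the levels were 104 ± 7.59 TPM for HoxC, 76.0 ± 5.83 for HoxD, 42.4 ± 4.26 for HoxA and 3.25 ± 0.740 for HoxB (mean ± SD, n = 50 mice).

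**Figure D1:**
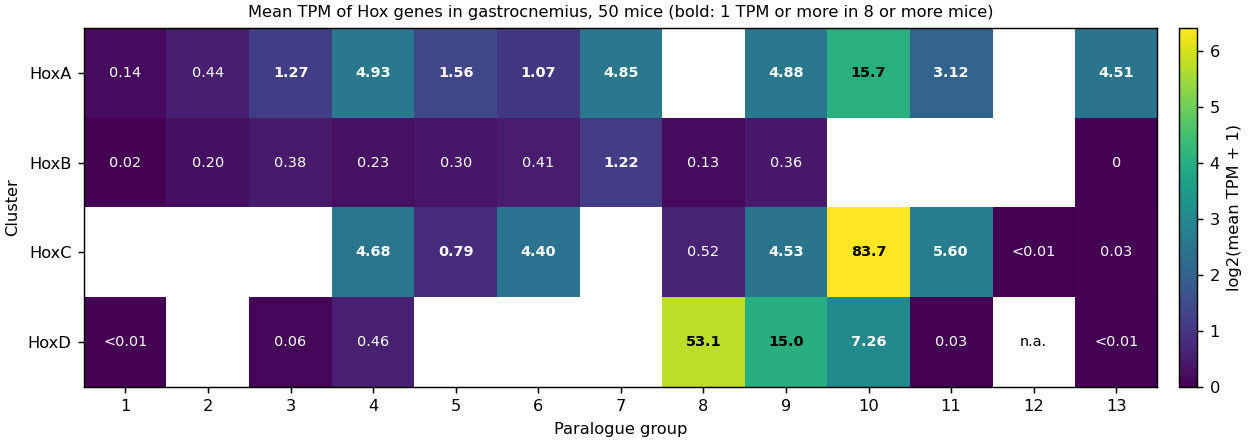
Mean TPM over 50 mice of each Hox gene, with clusters as rows and paralogue groups as columns; the number in a cell is the mean TPM, colour is log2(mean TPM + 1), bold marks the 19 expressed genes, blank cells have no gene and n.a. is Hoxd12. The highest cells are Hoxc10 at 83.7 and Hoxd8 at 53.1, and the HoxB row stays at or below 1.22.

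Hoxc10, a HoxC gene of the posterior limb and trunk (chr15:102966796-102971893, GRCm38), was the most abundant Hox transcript. Its level was 83.7 ± 6.86 TPM, with a lowest value of 66.5, a median of 83.7 and a highest value of 102 over the 50 mice. Hoxd8 (chr2:74704615-74707933), a HoxD gene of a middle paralogue group, followed at 53.1 ± 4.94 TPM, from 41.9 through a median of 53.0 to 64.4. These 2 genes held 60.6% of all Hox TPM, and with the next 2 the share was 74.2%. Hoxc10 was above Hoxd8, and Hoxd8 above Hoxa10, in 50 of 50 mice, and in both pairs the highest value of the lower gene lay under the lowest value of the upper one.

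Hoxa10 (chr6:52231197-52240854, minus strand), a gene of the limb and of the uterus and trunk, had 15.7 ± 2.75 TPM, from 9.81 to 21.4. Hoxd9 (chr2:74697727-74700208), its neighbour in level, had 15.0 ± 1.63 TPM, from 10.8 to 18.7. Their ranges overlapped, and Hoxa10 was the higher of the pair in 32 of 50 mice. Hoxd10 (chr2:74691924-74695105), a gene of limb motor neurons and of the limb itself, came next at 7.26 ± 1.08 TPM and was below Hoxd9 in 50 of 50 mice.

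From Hoxd10 down the ranges of neighbours in the order overlapped, although Hoxd10 was above Hoxc11 in 43 of 50 mice and Hoxa11 above Hoxa5 in 47 of 50. Hoxc11, a posterior hindlimb gene, had 5.60 ± 1.03 TPM, Hoxa4, one of the few expressed anterior genes, 4.93 ± 0.895 TPM, and Hoxa9, a gene of the upper limb segment and of blood progenitors, 4.88 ± 0.835 TPM. Hoxa7, Hoxc4, Hoxc9, Hoxa13, Hoxc6 and Hoxa11 lay between 3.12 and 4.85 TPM. Hoxa5, Hoxa3, Hoxb7, Hoxa6 and Hoxc5 lay between 0.789 and 1.56 TPM. The level of Hoxa13, a gene of the foot and hand segment, rests on 32.5 counts per mouse on an annotated coding transcript of 769 bases, so its TPM is high for its count.

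The rule divided genes that differ little in level. The last gene inside it, Hoxc5, reached 1 TPM in 12 mice and had a mean of 0.789 TPM, whereas just outside it Hoxd4 reached 1 TPM in 3 mice with a mean of 0.465 and Hoxc8 in none with a mean of 0.518. With 0.5 TPM as the minimum 25 genes passed, and with 2 TPM 14 did.

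The posterior ends of the clusters differed in level. Within HoxD the level went from 53.1 TPM for Hoxd8 through 15.0 for Hoxd9 and 7.26 for Hoxd10 to 0.0325 for Hoxd11 and 0.00253 for Hoxd13, and Hoxd13 had 3 counts in all 50 mice together. Within HoxC it went from 83.7 TPM for Hoxc10 and 5.60 for Hoxc11 to 0.00443 for Hoxc12 and 0.0262 for Hoxc13. HoxA did not end in that way, since Hoxa11 stood at 3.12 TPM and Hoxa13 at 4.51. Hoxb13 had no count in any of the 50 mice, which, with 3 counts as the upper limit, allows up to 0.00362 CPM (counts scaled to library size) over the 828232789 counts of all libraries, a limit that covers counting error only.

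The top of the order held over age, with changes of place below it. Hoxc10 was first, Hoxd8 second and Hoxd10 in place 5 at each of the 6 ages, by mean TPM. Places 3, 4 and 6 held the gene of that place over all 50 mice at 4 of the 6 ages, and places 7 and 8 at 3 of the 6. By mean TPM, 17 genes were at 1 TPM or more at 8, 18, 22 and 26 months and 18 at 24 and 28 months. The sum of all 38 genes was 230 ± 7.80 TPM (SD, n = 8 mice) in the youngest group and 219 ± 12.2 TPM (SD, n = 9 mice) in the oldest, with ranges of 216 to 239 and 201 to 237 TPM that overlapped. The pair Hoxa10 and Hoxd9 changed places: Hoxa10 was above Hoxd9 in 6 of 8 mice at 8 months, 8 of 8 at 18, 7 of 8 at 22, 6 of 8 at 24, 3 of 9 at 26 and 2 of 9 at 28 months. The ratio of their TPM within a mouse, which library scaling cannot move, had a median of 1.27 at 8 months and 0.778 at 28 months, and it ran from 0.856 to 1.47 and from 0.664 to 1.08. This pair was chosen after its values were seen, so its ratio is a description without a test.

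Differences with age were tested on counts, for genes with at least 1 CPM by unadjusted library size in at least 8 mice. In the fit and in the CPM values given, library sizes were adjusted by TMM factors. Of the 19 expressed Hox genes 18 entered, and Hoxa6 did not. Log2 fold changes, standard errors and p-values came from edgeR's quasi-likelihood test with Benjamini-Hochberg adjustment over all 12586 genes tested, and a gene was called at an adjusted p below 0.01. The comparisons with 8 months share the same 8 mice.

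Between 8 and 28 months 3 of 18 Hox genes were called. Hoxa10 and Hoxc11 fell and Hoxa5 rose. These 3 stand beside 39.6% of all genes tested, of which 21.0% were called higher and 18.7% lower. At an unadjusted p under 0.05 there were 7 members, a count without the share of all genes at that threshold, which is not given here. By sign, 7 were higher and 11 lower at 28 months, a split that turned to 5 and 13 with upper-quartile factors and to 9 and 9 with limma on log2(TPM + 1). The median log2 fold change was -0.06 for the Hox genes and 0.01 for all genes tested, and by size alone, without sign, the medians were 0.19 and 0.29. In no member did the values of the 2 ages stay apart without overlap, and the share of all genes without overlap is not given here.

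Hoxa10 moved in the oldest mice. At 8 months its 8 values ran from 14.8 CPM through a median of 17.0 to 21.0 CPM. At 18 months they ran from 13.1 through 16.1 to 23.6, and at 22 months from 12.9 through 17.0 to 20.1 CPM. These first 3 ages overlapped almost fully. At 24 months the values ran from 14.4 through 15.9 to 19.9 CPM, at 26 months from 10.4 through 13.2 to 16.8, and at 28 months from 9.73 through 12.2 to 18.1 CPM. Of the 9 mice of 28 months 7 lay below the lowest mouse of 8 months, and so did 7 of the 9 mice of 26 months. The fold change at 28 against 8 months was 0.730, a log2 fold change of -0.45 (SE 0.10, 95% confidence interval -0.66 to -0.25, adjusted p = 0.000313 by edgeR's quasi-likelihood test with Benjamini-Hochberg adjustment). The call held under the 7 other fits made, with adjusted p of 0.000124 to 0.00384, and with each of the 17 mice of these ages left out.

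Hoxc11 differed by less, and its call depended on single mice. At 8 months it ran from 5.42 through 7.57 to 10.2 CPM, at 18 months from 4.49 through 5.93 to 9.12, and at 22 months from 5.54 through 6.39 to 9.05 CPM. At 24 months it ran from 5.18 through 6.02 to 7.74 CPM, at 26 months from 4.88 through 6.06 to 7.42, and at 28 months from 5.26 through 5.74 to 7.38 CPM. The lowest values of 8 and 28 months were alike, and the difference lay in the upper part, with all 9 mice of 28 months below the mean of 8 months. The log2 fold change at 28 against 8 months was -0.40 (SE 0.13, adjusted p = 0.00645 by edgeR's quasi-likelihood test with Benjamini-Hochberg adjustment). By the replicate numbers of the labels, the call was lost without mice 1, 4 or 7 of 8 months or 1, 4, 5, 6 or 9 of 28 months, each left out alone, where the log2 fold change lay between -0.47 and -0.34 over the 17 cases and the adjusted p reached 0.0257. It was also lost without the filter on low counts and with limma on TPM.

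Hoxa5, a gene of the trunk, lung and fat tissue, was a low transcript. At 8 months it ran from 0.715 through 1.33 to 1.84 CPM, at 18 months from 0.924 through 1.61 to 2.48, and at 22 months from 0.915 through 1.66 to 2.32 CPM. At 24 months it ran from 0.921 through 1.44 to 2.18 CPM, at 26 months from 1.07 through 1.34 to 2.07, and at 28 months from 0.967 through 1.94 to 6.07 CPM. A single mouse of 28 months, number 1, held the value of 6.07, and the next highest of that age had 2.49 CPM. The log2 fold change at 28 against 8 months was 0.74 (SE 0.23, adjusted p = 0.00681 by edgeR's quasi-likelihood test with Benjamini-Hochberg adjustment), and 5 of 9 mice of 28 months lay above the highest mouse of 8 months. With mouse 1 left out the log2 difference was 0.41 and the adjusted p 0.0763, in a range of adjusted p from 0.00172 to 0.0763 over the 17 mice left out. The call was also lost without mice 1, 2, 4, 5, 6 or 7 of 8 months or 5 of 28 months, without the filter on low counts, with upper-quartile factors, with limma on TPM and in a fit of the 2 ages alone.

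**Figure D2:**
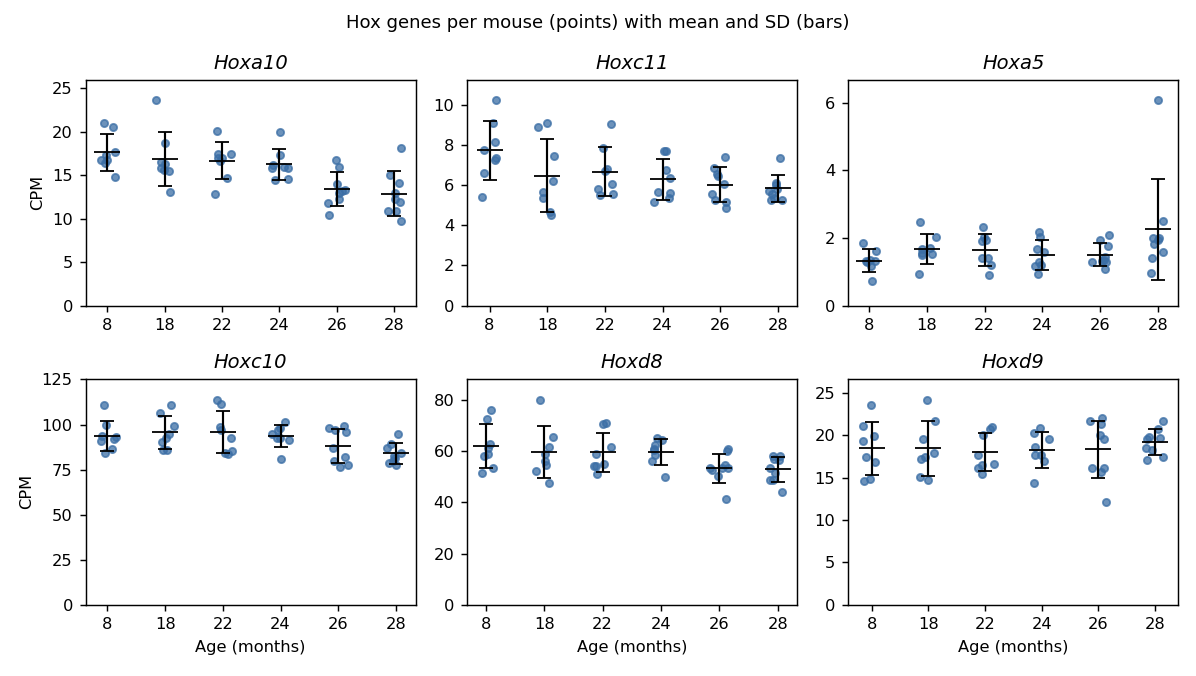
CPM per mouse (points) at 6 ages in months for 6 Hox genes, with the mean (wide bar) and SD (capped bars) of 8 or 9 mice per age and axes that start at 0. Hoxa10 is lower at 26 and 28 months, Hoxd9 stays level, and 1 mouse of 28 months carries the Hoxa5 value of 6.07.

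The 2 most abundant members were slightly lower at 28 months, short of the threshold. Hoxc10 ran from 84.2 through a median of 92.7 to 111 CPM at 8 months and from 77.6 through 82.4 to 94.9 CPM at 28 months, with medians of 93.7, 94.9, 93.8 and 87.0 CPM at 18, 22, 24 and 26 months. Its log2 difference was -0.16 (95% interval -0.30 to -0.02) with an adjusted p of 0.0421 by edgeR's quasi-likelihood test. Hoxd8 ran from 51.6 through 60.1 to 76.1 CPM at 8 months and from 44.1 through 53.5 to 58.2 CPM at 28 months, with medians of 57.5, 56.8, 60.5 and 53.5 CPM between. Its log2 difference was -0.22 (95% interval -0.40 to -0.05) with an adjusted p of 0.0238 by edgeR's quasi-likelihood test. For both genes the values of the 2 ages overlapped, and with upper-quartile factors both passed the threshold, with an adjusted p of 0.00622 for Hoxc10 and 0.00631 for Hoxd8 by the same test.

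The other abundant members showed intervals around no change. From the youngest to the oldest age Hoxd9 had medians of 18.4, 17.7, 17.1, 18.1, 19.5 and 19.6 CPM, values from 14.6 to 23.5 CPM at 8 months and from 17.0 to 21.6 CPM at 28, and a log2 difference between these ages of 0.06 (95% interval -0.15 to 0.26). Hoxd10 had medians of 7.43, 7.67, 7.35, 8.60, 6.63 and 7.40 CPM, values from 5.51 to 9.23 CPM at 8 months and from 4.62 to 9.46 at 28, and a log2 difference of -0.03 (-0.27 to 0.20). In both genes the groups overlapped. Hoxa4 had medians of 4.27, 4.70, 4.73, 4.52, 5.39 and 4.20 CPM, values from 3.22 to 5.66 at 8 months and from 2.55 to 5.52 at 28, and a log2 difference of -0.06 (-0.35 to 0.22). Hoxa9 had medians of 6.31, 5.77, 6.44, 6.63, 6.64 and 6.72 CPM, values from 4.85 to 7.97 at 8 months and from 5.26 to 7.99 at 28, and a log2 difference of 0.03 (-0.19 to 0.26). The signs of Hoxa4, Hoxa9 and Hoxd10 turned under other scalings or with a mouse left out.

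Among the 9 remaining members tested the log2 fold changes between 28 and 8 months ran from -0.44 for Hoxc5 to 0.33 for Hoxa13, and none was called. Hoxa7, a gene of the trunk, was 0.30 higher on the log2 scale (SE 0.11) with an adjusted p of 0.0238 by edgeR's quasi-likelihood test, from 3.94 to 5.07 CPM at 8 months and from 4.45 to 6.33 CPM at 28 months. It passed with limma on log2(TPM + 1). Of all 18 members, the 95% interval lay inside a 1.5-fold change in either direction for 11 and inside a 2-fold change for 17, and it left out 0 for 7.

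**Figure D3:**
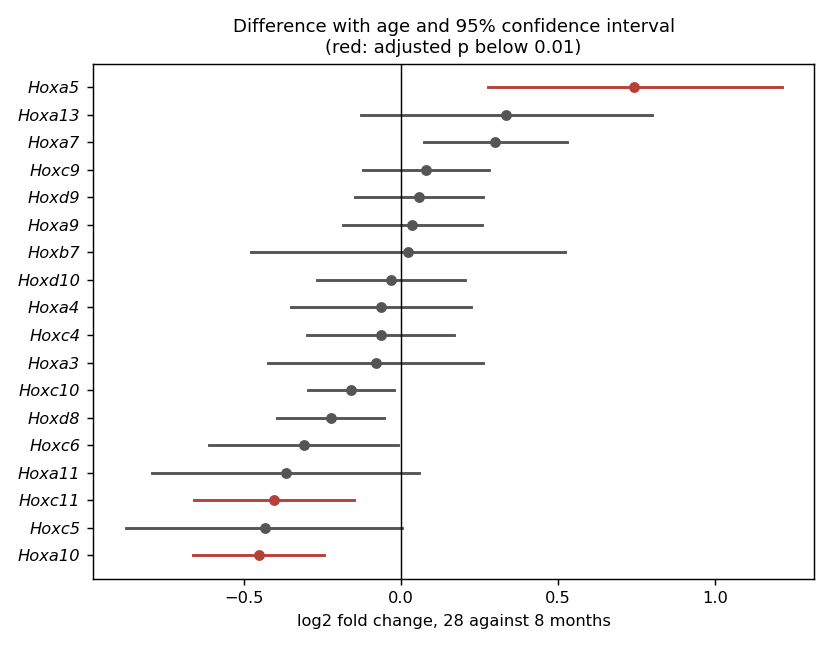
Log2 fold change of CPM between 28 months (9 mice) and 8 months (8 mice) for 18 Hox genes (dots) with 95% confidence intervals (lines); red marks an adjusted p below 0.01. Hoxa10 at -0.45, Hoxc11 at -0.40 and Hoxa5 at 0.74 are red, and most other intervals cross 0.

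The fall of Hoxa10 was also seen at 26 months. In 26 against 8 months it was the 1 member called, beside 18.4% of all genes tested, with a log2 fold change of -0.40 (SE 0.10, adjusted p = 0.00332 by edgeR's quasi-likelihood test with Benjamini-Hochberg adjustment). All 9 mice of 26 months lay below the mean of 8 months. Hoxc11 at -0.36, Hoxd8 at -0.21 and Hoxa13 at 0.61 had adjusted p of 0.0252, 0.0463 and 0.0323 by the same test.

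At 24, 22 and 18 months no Hox gene was called against 8 months (the last within one diet regime), where the test called 0.612%, 0.0397% and 0.0715% of all genes. At an unadjusted p under 0.05 there were 2, 0 and 0 members, without the share of all genes, and DESeq2 also called 0 at each age. The 2 at 24 months were Hoxc11, with a log2 difference of -0.29, and Hoxa7, with one of 0.30. The log2 difference of Hoxa10 was -0.12 (95% interval -0.33 to 0.10) at 24 months, -0.08 at 22 months and -0.06 at 18 months.

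A comparison within one diet regime, 28 against 22 months, called Hoxa10 and no other member, beside 27.7% of all genes tested. The mice of 28 months had been on the diet for longer, so age and time on the diet cannot be told apart here either. Its log2 fold change was -0.37 (SE 0.10, 95% interval -0.58 to -0.16, adjusted p = 0.00389 by edgeR's quasi-likelihood test with Benjamini-Hochberg adjustment). This call was lost without mouse 3 of 22 months or mouse 1 of 28 months, and in a fit of these 2 ages alone, where the log2 fold change was -0.38 and the adjusted p 0.0164, in a range of 0.00176 to 0.0164 over the other fits. Mouse 3, with the highest Hoxa10 value of its age at 20.1 CPM, had 3 counts of the keratinocyte gene Krt5, 1 of Krt14 and 2 of Krt1. Mouse 4 of 22 months had the most keratin counts of that age (102, 46 and 36), and without it the adjusted p was 0.0065 by the same test. Hoxc10 had a log2 fold change of -0.19 (SE 0.07, adjusted p = 0.0202 by the same test), with all 9 mice of 28 months below the mean of 22 months. By sign 15 of the 18 members were lower at 28 than at 22 months, a split that was not tested. The median log2 fold change was -0.14 for the Hox genes and 0.01 for all genes tested.

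Tested over all 6 ages at once, Hoxa10 was the 1 member called (adjusted p = 0.000423 by edgeR's quasi-likelihood test), beside 35.4% of all genes. Hoxa3 was next, with an adjusted p of 0.0242 by the same test and age medians between 1.27 and 1.83 CPM. The range of the mean log2 CPM over the 6 ages had a median of 0.30 over the 18 Hox genes and of 0.37 over all 12586 genes. The SD between mice of one age was 0.25 and 0.24 by the same medians.

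Among the TALE partners of Hox proteins 1 gene was called. Of the Pbx, Meis and Pknox genes tested between 28 and 8 months 1 rose and none fell, beside 21.0% and 18.7% of all genes. Pknox2 rose from 19.8 ± 3.05 TPM (n = 8) to 29.5 ± 7.51 TPM (n = 9), a log2 fold change of 0.50 (SE 0.12, adjusted p = 0.00039 by edgeR's quasi-likelihood test). Its relative Pknox1 had a log2 difference of 0.22 with an adjusted p of 0.0181 by the same test. Pbx2 at -0.17, Pbx3 at 0.16, Meis1 at -0.07, Meis2 at -0.10 and Meis3 at -0.03 did not pass. Their levels at 8 months were 13.4 TPM for Pbx2, 1.54 for Pbx3, 1.72 for Meis1, 0.796 for Meis2 and 1.28 for Meis3, and Pbx4 stayed at or below 0.361 TPM in every mouse.

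Other genes of limb identity gave 1 call among 8 tested of 16 listed, beside 39.6% of all genes tested. Tbx4, which marks the hindlimb in the embryo, had 1.80 ± 0.231 TPM at 8 months and 2.03 ± 0.399 at 28 months, with a log2 difference of 0.10 (SE 0.12). Pitx1, the upstream hindlimb gene, averaged 0.08 TPM over the 50 mice, and Tbx5, the forelimb counterpart of Tbx4, 0.106 TPM; neither was tested. Shox2, a gene of the upper limb segment, fell from 1.77 ± 0.624 to 1.09 ± 0.287 TPM, by 0.71 on the log2 scale (SE 0.18, adjusted p = 0.00117 by edgeR's quasi-likelihood test). Of 13 homeobox genes related to the Hox family, 9 were in the tables and 2 were tested. Meox1, a somite gene, fell from 3.07 ± 0.691 to 2.04 ± 0.466 TPM, by 0.66 on the log2 scale (SE 0.19, adjusted p = 0.00358 by the same test), and Meox2 had a log2 difference of -0.18. With limma on log2(TPM + 1) the limb list had 1 call higher and 2 lower, and Meox1 was not called.

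Among the chromatin regulators that act on Hox clusters, 8 of 23 Polycomb genes rose and 3 fell, beside 21.0% higher and 18.7% lower over all genes tested, with a median log2 fold change of 0.09. With upper-quartile factors 5 rose and 4 fell, and with limma on log2(TPM + 1) 7 rose and none fell. Ezh1, the methyltransferase subunit of resting cells, rose from 22.9 ± 3.55 to 40.9 ± 13 TPM (log2 fold change 0.77, SE 0.12, adjusted p = 1.98e-06 by edgeR's quasi-likelihood test), and Cbx7, a reader of the Polycomb mark, rose from 17.8 ± 2.07 to 25.6 ± 4.44 TPM. Of 15 Trithorax genes 8 rose and 1 fell, with a median of 0.41. Kmt2b, a histone methyltransferase, rose from 7.44 ± 2.08 to 15.5 ± 4.37 TPM (log2 fold change 0.97, SE 0.15, adjusted p = 1.28e-06 by the same test), and Dpy30, a core subunit of these complexes, fell from 44.0 ± 4.79 to 31.4 ± 3.61 TPM. Of 9 tested genes that flank the Hox clusters 4 rose and none fell, beside the same shares of all genes, with a median of 0.15, among them Calcoco1 at 0.54 and Tax1bp1 at 0.58 on the log2 scale; 1 fell with upper-quartile factors.

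**Figure D4:**
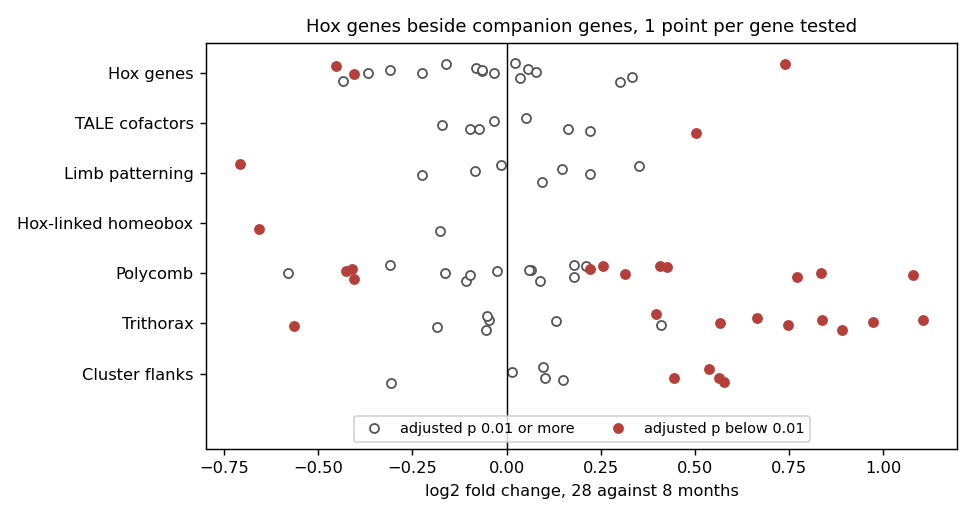
Log2 fold change between 28 and 8 months for each tested gene (points) of the Hox family and of 6 companion lists, filled red where the adjusted p is below 0.01; vertical scatter carries no value. Of 18 Hox genes 3 are red, beside 11 of 23 Polycomb genes, 9 of 15 Trithorax genes and 39.6% of all genes tested.

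Markers of cell types that the muscle could hold were compared between 28 and 8 months. Over all genes tested 21.0% were called higher and 18.7% lower. Of 8 fibroblast markers 6 were called lower at 28 months and none higher, and the sum of the list was 825 to 1178 TPM at 8 months and 651 to 887 TPM at 28 months, with none of the 8 at 0. Among them Pdgfra and Dcn had log2 differences of -0.30 and -0.20 and did not pass, whereas Col3a1 fell by 2.28. Dcn alone averaged 670 TPM at 8 months and made up most of the sum. Prrx1, a gene of limb connective tissue, had 29.3 ± 4.15 and 29.9 ± 4.39 TPM. Adipocyte markers had 3 of 5 lower (413 to 660 and 300 to 701 TPM) and tenocyte markers 2 of 5 (129 to 311 and 82.0 to 239 TPM). Fabp4, which was not called, averaged 421 TPM at 8 months and made up most of the adipocyte sum. Adipoq, which was called, averaged 39.2 TPM at 8 months and 14.9 TPM at 28 months. Endothelial, mural and Schwann cell markers had 1 of 5 lower each, near the share of all genes. Denervation markers had 5 of 5 higher (39.4 to 62.0 and 79.8 to 504 TPM), macrophage markers 2 of 5 higher, muscle fibre markers 2 of 6 higher, and slow fibre (5 tested), satellite cell (2 tested) and keratinocyte markers (1 tested) had none called by edgeR. In these last lists 1, 1 and 0 markers had an unadjusted p under 0.05, without the share of all genes, and DESeq2 called 0, 0 and 1. The defining keratins Krt5, Krt14 and Krt1 had 0 counts in every mouse of 8 and 28 months. At the ages between, Krt5 was counted in 1 mouse of 18 months (2 counts), 3 of 22 months (1, 3 and 102) and 1 of 26 months (328), and without this last mouse the adjusted p of Hoxa10 at 26 against 8 months was 0.00742 by edgeR's quasi-likelihood test. Their part in the Hoxa10 differences was not tested beyond leaving out 1 mouse at a time. The 4 satellite cell markers averaged under 1 TPM each. The part of these cell types in the differences of Hoxa10, Hoxc11 and Hoxa5 was not tested.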

How the data were processed

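The authors made stranded, polyadenylated, paired-end libraries of gastrocnemius RNA and trimmed the reads with cutadapt 1.9.1. They assigned the reads with kallisto 0.43.1, using the strand, to transcripts of GRCm38 (versions from the submitters' processing notes). The authors describe these transcripts as protein-coding, yet the deposited tables also held genes antisense to Hox genes, such as Hoxd3os1 and Hoxa11os. This difference was not resolved here. The counts, as deposited by the authors, are whole numbers per gene without normalization, summed over transcripts. The TPM values, as deposited by the authors, are scaled by transcript length and library size and summed per gene. Reads shared by several transcripts were divided among them, so values of paralogues carry that division. Each library came from one mouse, and ages were taken from the deposited labels.

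Levels were read from TPM, and expression meant 1 TPM or more in 8 or more mice. Age was tested on counts by the quasi-likelihood test of edgeR 4.0.16 (R 4.3.3; TMM factors; 1 fit over 50 mice with a mean per age; genes reaching 1 CPM in 8 or more mice; Benjamini-Hochberg adjustment over all genes; FDR 0.01); standard errors and 95% intervals are from the same fit. Alternatives were upper-quartile factors, no filter, DESeq2 1.42.0, limma 3.58.1 on log2(TPM + 1) and log2(TPM + 0.1), a fit of the ages compared alone, the replicate number as a block, FDR 0.05 and each mouse left out. On simulated counts for 28 against 8 months, 44 of 67 genes changed 1.5-fold, 62 of 67 changed 2-fold and 64 of 66 changed 3-fold were called among 12586 genes, with 1 false call. Only 200 genes, drawn at random from all genes tested, were changed there, whereas 39.6% of genes were called in the data. These rates therefore do not give the sensitivity for the Hox genes. Gene positions and transcript lengths came from GENCODE vM21 on GRCm38, which need not be the authors' annotation, and windows upstream of genes from RefSeq. Tables were made in Python 3.11.15 with pandas 2.3.3.

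The Hox genes named with values were the 8 expressed members with the highest mean TPM and any past FDR 0.01; of companion lists, the TALE partners, Pitx1, Tbx4 and Tbx5, and of each other list the 2 called members with the smallest p. Other genes are named as examples. The values of 1 listed gene are not reported here. The members and the lists were chosen with earlier results of these data known. Total counts per mouse were 13607229 to 21267375, and the spread between mice gives the precision.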

Additional observations from a re-analysis of the deposited data

Results flagged for a closer look

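Of 54 groups of mice of one age for the 9 Hox genes named with values, 5 held a value set apart from the others, as a lowest or highest CPM whose gap to its neighbour took up more of the range than Dixon's 95% limit allows, which chance gives in about 1 of 20 groups. Hoxa5 was at 6.07 CPM in mouse 1 of 28 months, with the next mouse at 2.49, and the call of Hoxa5 at 28 against 8 months was lost without this mouse. Hoxc11 was at 7.38 CPM in mouse 7 of 28 months, with the next at 6.14. Hoxd10 was at 10.3 CPM in mouse 3 of 26 months, with the next at 7.49. Hoxa9 was at 7.64 CPM in mouse 4 of 18 months, with the next at 6.08. Hoxc10 was the lowest at 80.6 CPM in mouse 2 of 24 months, with the next at 91.6. The 5 values came from 5 different mice.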

How the results depend on the processing

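The count of Hox genes called at 28 against 8 months was 3. It was 1 without a filter on low counts, 6 at FDR 0.05 and 1 to 3 with a mouse left out, with 1 when mice 1, 4 or 7 of 8 months or 1 or 5 of 28 months were absent. Other fits changed which members were called. With upper-quartile factors Hoxc10 and Hoxd8 passed and Hoxa5 did not. A fit of the 2 ages alone also lost Hoxa5. Both limma fits lost Hoxc11 and Hoxa5, and the one on log2(TPM + 1) gained Hoxa7. At 26 against 8 months the count of 1 became 4 at FDR 0.05 and lay between 1 and 2 with a mouse left out, where mouse 7 of 8 months gave 2. At 28 against 22 months the count of 1 became 2 with upper-quartile factors, 2 with the replicate block, 0 with only these 2 ages in the fit and 2 at FDR 0.05, and lay between 0 and 1 with a mouse left out. Over any of the 6 ages the count of 1 became 2 with upper-quartile factors and 2 at FDR 0.05, and stayed 1 with each of the 50 mice left out. At 24, 22 and 18 months the count was 0 in every fit. The log2 fold change at 28 against 8 months turned in sign for 3 members that were not called: Hoxd10 was 0.03 with limma on log2(TPM + 1), 0.03 on log2(TPM + 0.1) and -0.09 to 0.03 with a mouse left out; Hoxa4 was 0.01, 0.01 and -0.13 to 0.01 in the same order; Hoxa9 was -0.02 with upper-quartile factors and -0.01 to 0.09 with a mouse left out. The cause of these changes was not tested. The replicate numbers did not pair the mice: deviations of same-numbered mice of different ages had a median correlation of 0.0513 over 121 pairs and -0.554 to 0.380 in range, beside -0.00590 for different numbers. For genes near 1 CPM, as Hoxb7 and Hoxa5, counts of 5 to 88 per mouse limit what could be detected.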

Other observations

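Transcripts antisense to Hox genes were also in the tables, and the libraries kept the strand. Hoxd3os1 had 9.10 ± 2.30 TPM and Hoxa11os 3.88 ± 1.34 TPM (SD, n = 50), both at 1 TPM or more in all 50 mice. Hoxd3, the gene beside the first, had 0.0612 TPM, and Hoxa11, the gene beside the second, 3.12 TPM. Between 28 and 8 months their log2 differences were -0.01 (SE 0.21) for Hoxd3os1 and -0.10 (SE 0.26) for Hoxa11os, and over the 6 ages their adjusted p by edgeR's quasi-likelihood test was 0.966 and 0.820. Hoxaas3 had 0.442 TPM, Hoxb3os 0.129, Hoxaas2 0.0287 and Hoxb5os 0.00920. What these levels mean for the neighbouring genes was not tested.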
